A study of Mus musculus with 188 samples.

Results

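Brain slices kept with the hemoglobin-haptoglobin complex (HbHp, 200 µM) for 48 h were compared with slices kept with it for 24 h. The members are 16 of the 188 libraries of the series, 8 at each time, taken by their treatment label and sequencing batch. All 16 came from one sequencing batch (batch 3) and carry the code E2 in their library names, so neither differs between the times. The codes E1 and E2 are read here as culture rounds, and the labels do not explain them. Messenger RNA was sequenced from organotypic brain slice cultures, which are coronal slices of C57BL/6J mouse brain kept alive on membrane inserts at the air-liquid interface. The mice were of both sexes and 6 to 8 weeks old, with no genetic change named, and exposure began on culture day 7, so the 48 h slices were also 1 day older in culture. The complex was made of human hemoglobin and human haptoglobin, with haptoglobin in slight molar excess. Human proteins on mouse receptors, and the loss of microglia that the study describes in adult slices, limit the cultures as a model. Time in culture without hemoglobin was read from untreated control slices (10 libraries at 24 h, 9 at 48 h, from batches 2 and 3 and rounds E1 and E2) and from slices given haptoglobin alone at 400 µM (Hp, 12 and 11 libraries, batch 3, both rounds). The same interval at 400 µM HbHp had 4 and 5 libraries of batch 3 and round E2. Of the controls, only 1 library at each time was of batch 3 and round E2, and 6 at each time were of batch 2 and round E1. Comparisons of HbHp with control therefore rest in part on the batch and round terms of the fit. The labels do not say which libraries came from separate animals, so p-values measure the spread between these libraries, which may be partly technical.

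Haptoglobin binds hemoglobin that has left red blood cells and slows the release of its heme. Phagocytes take up the complex, among others through the receptor Cd163, and degrade it in lysosomes. Heme oxygenase, encoded by Hmox1, then opens the heme ring and frees the iron, which is stored in ferritin (Fth1, Ftl1) or exported by ferroportin (Slc40a1), while biliverdin is reduced to bilirubin by biliverdin reductases such as Blvrb. Heme and electrophiles release the transcription factor NRF2 and lift repression by BACH1 at antioxidant genes, many of which carry the antioxidant response element in their regulatory DNA.

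Total counts per library ran from 24695240 to 32211321 at 24 h and from 25379899 to 32416072 at 48 h, and 16224 of 25528 genes were tested. Slice cell types were present by their markers: the summed level of 14 astrocyte markers was 7746 to 13170 CPM (counts scaled to library size, in units of 1e+06 reads) over the 16 libraries, that of 19 oligodendrocyte lineage markers 31630 to 44840 CPM and that of 17 neuron markers 572.7 to 1037 CPM. Of 20 microglia markers, Siglech was at 0 in 14 of the 16 libraries. Among region markers, Neurod6 of cortex and hippocampus was at 0 in 13 libraries, and Pmch and Hcrt of the hypothalamus in 12 and 11. The library of 48 h replicate 1 stood apart from the others, lying at -67.4 on the first principal component of the 16 libraries, where the others lay between -29.38 and 32.56. Its summed level of 9 cortex and hippocampus markers was 75.61 CPM, against 147.5 to 173.5 CPM in the other 7 libraries of that time. Among the other summed lists of markers it was the highest of the 8 for microglia (4227 CPM, others 2817 to 3741) and hypothalamus (89.44 CPM, others 6.39 to 50.8). It was the lowest for border-associated macrophages (350.5 CPM, others 427.9 to 635.1), mural cells (326.1 CPM, others 402.3 to 547.7), fibroblasts and meninges (581.1 CPM, others 610.2 to 1179) and thalamus (95.18 CPM, others 106.6 to 129.6). The counts of genes called, and the genes described at length, are therefore also given without it.

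At 48 h, 6 of 17 listed genes of disease-associated microglia, 6 of 25 lysosome genes and 9 of 39 NRF2 targets were higher than at 24 h, while 5 of 29 ATF4 targets and 3 of 27 genes of sterol and fatty acid synthesis were lower. Without the library of 48 h replicate 1 these counts were 3, 2, 4, 1 and 0. When the 16 libraries were fitted alone, 10 of 17, 15 of 25 and 15 of 38 genes were higher in the first 3 lists. In the last 2 lists 5 of 29 and 4 of 26 were lower, and 1 ATF4 target was higher. Over all genes, the fit of the 16 libraries alone called 904, and the fit without 48 h replicate 1 called 199. Of the 16224 genes tested, 684 (4.22%) passed the test, the quasi-likelihood F test of edgeR, at a p of 0.05 after Benjamini-Hochberg adjustment. Higher levels at 48 h were called for 430 genes (2.65%) and lower levels for 254 (1.57%). Most changes were small: the median size among the 684 genes was 0.32 on the log2 scale, 114 genes changed at least 1.5-fold (84 up, 30 down) and 34 at least 2-fold (20 up, 14 down). The 8 values of 48 h lay wholly above the 8 values of 24 h for 215 genes (1.33% of those tested) and wholly below for 31 (0.191%). Without the library of 48 h replicate 1, 199 genes were called (145 up, 54 down). All 684 genes kept their direction without it, and their fold changes had a median ratio of 0.84 to those of the full set. These genes were picked with that library in the fit, and the refit shares all the others. The kept direction is therefore no independent support. Calls near the threshold, such as those of Hmgcs1, Prc1, Bcas1, Ms4a7, Cd52 and Arg1 described below, were each lost when any 1 of several libraries was left out. Leaving out 24 h replicate 1 gave 358 calls, and leaving out 48 h replicate 4 gave 1059.

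**Figure D1:**
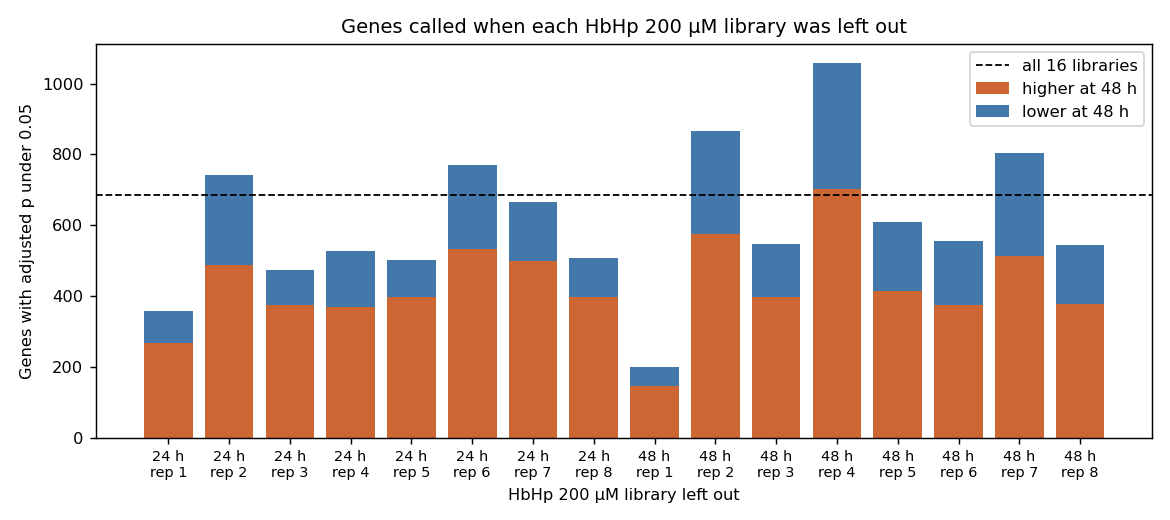
Number of genes called between 48 h and 24 h (vertical axis) in the HbHp 200 µM slices when each of the 16 libraries was left out in turn (horizontal axis, rep for replicate), split into genes higher (orange) and lower (blue) at 48 h. The dashed line marks the 684 genes called with all libraries, and the count falls lowest, to 199, without 48 h replicate 1.

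Clec7a (ENSMUSG00000079293), the receptor dectin-1 that binds beta-glucan and is raised in disease-associated microglia, lay at 72.7 to 100.5 CPM at 24 h (median 78.9) and at 146.1 to 290.1 CPM at 48 h (median 196.1). Every 48 h library was above every 24 h library. The log2 fold change was 1.26 (SE 0.23, adjusted p = 0.0029), a 2.39-fold rise, and 1.16 without 48 h replicate 1 (adjusted p = 0.012). Clec4n (ENSMUSG00000023349), which encodes the lectin receptor dectin-2, went from 11.5 to 20.5 CPM (median 18.4) to 26.9 to 50.8 CPM (median 31.4). The times did not overlap, and the log2 fold change was 1.01 (SE 0.19, adjusted p = 0.0029), and 0.92 without 48 h replicate 1 (adjusted p = 0.013). Its genomic neighbour Clec4d, a related lectin receptor, rose by 0.93 (SE 0.21, adjusted p = 0.0097), and by 0.76 without that library (adjusted p = 0.049). Mmp12, the elastase of macrophages, had 218.1 to 346.0 CPM (median 268.0) at 24 h and 431.3 to 984.5 CPM (median 509.6) at 48 h. All 48 h values were the higher ones, with a log2 fold change of 1.06 (SE 0.20, adjusted p = 0.0032) and of 0.90 without 48 h replicate 1 (adjusted p = 0.016). Creg1, a secreted glycoprotein of the endosome and lysosome, rose from a median of 161.4 CPM (146.6 to 186.4) to 277.8 CPM (240.0 to 462.9), by 0.84 on the log2 scale (SE 0.16, adjusted p = 0.0029), and by 0.72 without 48 h replicate 1 (adjusted p = 0.014).

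Olr1, the receptor LOX-1 for oxidised low-density lipoprotein, was low at both times, with 3.22 to 6.79 CPM (median 3.93) at 24 h and 8.37 to 16.8 CPM (median 11.96) at 48 h. All 48 h libraries were higher, and the log2 fold change was 1.45 (SE 0.33, adjusted p = 0.0090), and 1.46 without 48 h replicate 1 (adjusted p = 0.019). Apoe, the main lipid carrier protein of the brain, rose from a median of 1664 CPM (1445 to 2170) to 2386 CPM (2116 to 2956), and 7 of the 8 libraries of 48 h were above the highest of 24 h. Its log2 fold change was 0.52 (SE 0.13, adjusted p = 0.014), and 0.50 without that library (adjusted p = 0.036). Gpnmb, a glycoprotein of lysosomes in lipid-laden phagocytes, rose by 0.57 (SE 0.16, adjusted p = 0.029), and by 0.61 without it (adjusted p = 0.039). Here 48 h replicate 1 was the lowest of its group, at 2860 CPM, and still above the highest 24 h library, at 2796 CPM. Lyz2, the lysozyme of myeloid cells, Cd36, a scavenger receptor for oxidised lipids, and Fabp4, a fatty acid carrier, were picked after their values were seen. They rose by 1.04, 0.94 and 0.87 on the log2 scale (SE 0.21, 0.19 and 0.18, adjusted p = 0.0035, 0.0035 and 0.0048), and by 0.91, 0.82 and 0.74 without 48 h replicate 1 (adjusted p = 0.018, 0.018 and 0.027).

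Of 17 listed genes of disease-associated microglia, 6 rose and none fell, with a median log2 change of 0.52 over all 17 against -0.01 over all genes tested. Beside Clec7a, Apoe and Gpnmb, the growth factor gene Igf1 rose by 0.86 (SE 0.22, adjusted p = 0.019). With 48 h replicate 1 left out, 3 of the 17 were called and the median was 0.50. Of 25 listed lysosome genes, 6 rose and none fell, with a median of 0.34, and 23 of the 25 lay above 0. The proton pump subunits Atp6v0d2 and Atp6v1a rose by 0.73 (SE 0.17, adjusted p = 0.012) and 0.24 (SE 0.06, adjusted p = 0.024). Prosaposin, Psap, which activates the breakdown of sphingolipids, rose by 0.39 (SE 0.10, adjusted p = 0.024), and Gla, the lysosomal alpha-galactosidase, by 0.50 (SE 0.13, adjusted p = 0.019). Of the lysosome genes 2 were called without 48 h replicate 1, and the calls of Gla, Atp6v1a and Igf1 were among those lost. Levels of Atp6v0d2 were 14.6 to 21.6 CPM at 24 h and 22.3 to 35.1 CPM at 48 h, without overlap.

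Markers of microglia moved with these genes. The summed level of 19 markers was 1945 to 3109 CPM at 24 h (median 2250) and 2817 to 4227 CPM at 48 h (median 3550), so the ranges overlapped in part. Among the 19 markers tested, 18 had a positive log2 change and the median was 0.61, but only Tyrobp, the adaptor of myeloid receptors, passed the test. Tyrobp rose from a median of 165.6 CPM (150.5 to 222.5) to 277.4 CPM (233.4 to 464.7), without overlap (log2 fold change 0.76, SE 0.22, adjusted p = 0.034). Its change was 0.64 when 48 h replicate 1 was left out, and it was not called (adjusted p = 0.11), nor was it without 24 h replicate 1, 3, 5 or 8. Fitted on the 16 libraries alone, 10 of 18 microglia markers were called as higher, in a fit that called 904 genes in all. Of 9 markers of border-associated macrophages, Ms4a7, a membrane protein of these cells, rose by 0.55 (SE 0.17, adjusted p = 0.049, and 0.14 without 48 h replicate 1), and the median of the 9 was 0.17. In these bulk samples more cells of a type and more RNA per cell cannot be told apart, and the part of the summed marker level in the rises of the phagocyte genes was not tested.

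**Figure D2:**
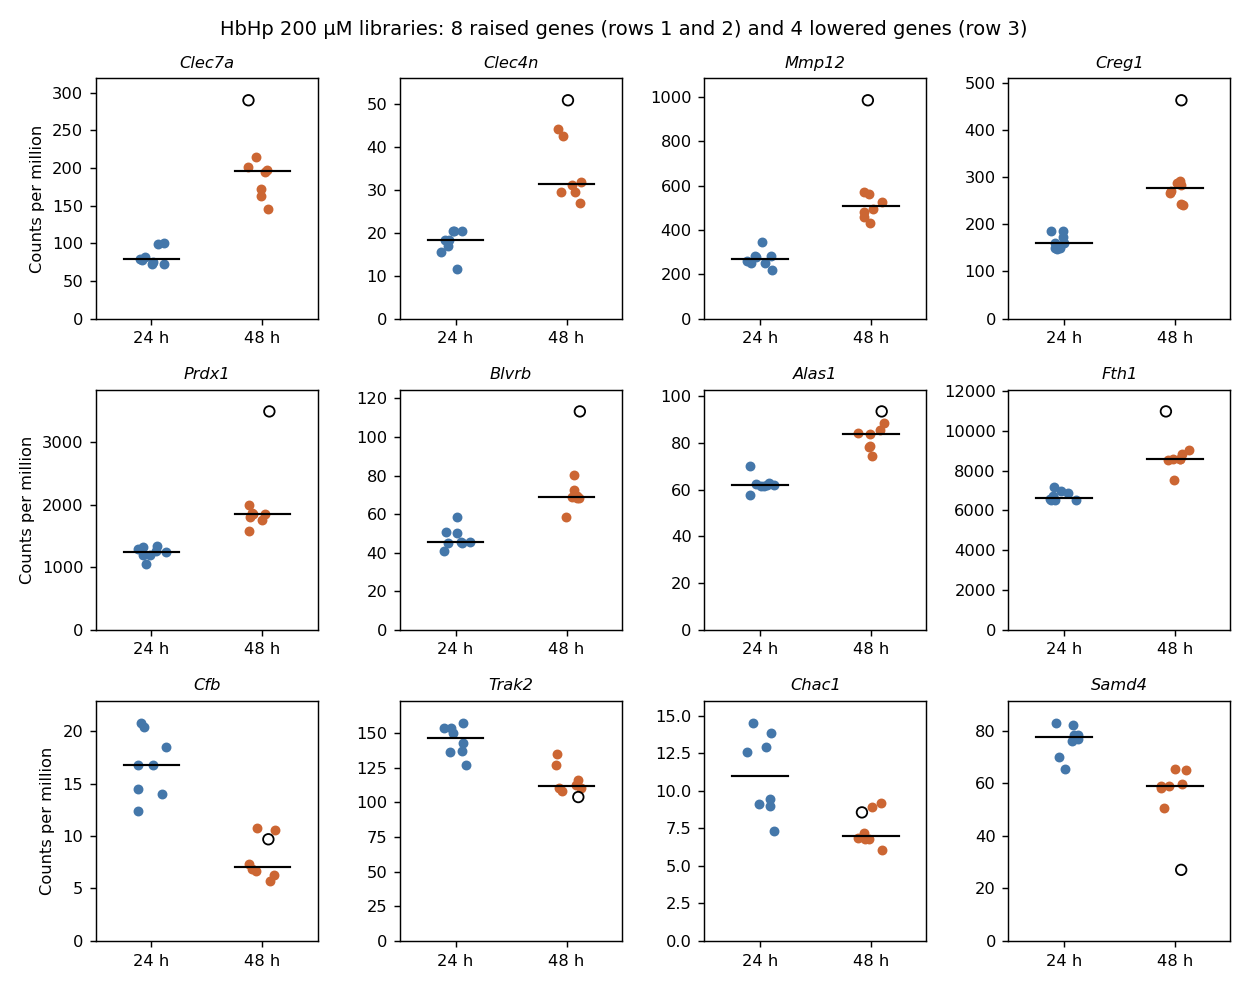
CPM (vertical axes, from 0) of 12 genes in each HbHp 200 µM library at 24 h (blue) and 48 h (orange), with bars at the group medians and an open circle for 48 h replicate 1. The 8 genes of the upper rows had no overlap between the times, and 48 h replicate 1 was the highest library for all 8.

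Genes controlled by NRF2 rose in part. Of 39 listed targets tested, 9 rose and none fell, 36 lay above 0 and the median log2 change was 0.18. Prdx1 (ENSMUSG00000028691), a peroxiredoxin that reduces hydrogen peroxide, had 1047 to 1342 CPM at 24 h (median 1248) and 1578 to 3494 CPM at 48 h (median 1855). All 48 h libraries were higher than all 24 h libraries. The log2 fold change was 0.72 (SE 0.14, adjusted p = 0.0033), and 0.56 without 48 h replicate 1, whose 3494 CPM compare with at most 2000 CPM in the other 7 libraries (adjusted p = 0.019). Blvrb (ENSMUSG00000040466), biliverdin reductase B, rose from a median of 45.6 CPM (40.96 to 58.5) to 69.1 CPM (58.7 to 113.3). Its groups did not overlap, and the log2 fold change was 0.65 (SE 0.13, adjusted p = 0.0040), and 0.55 without 48 h replicate 1 (adjusted p = 0.022). Ephx1, a microsomal epoxide hydrolase, rose by 0.34 (SE 0.07, adjusted p = 0.0056), and the glutathione S-transferase Gstm2 by 0.79 (SE 0.20, adjusted p = 0.020). Without 48 h replicate 1, Gstm2 was at 0.74 and no longer called (adjusted p = 0.054), and 4 of the 39 targets were called, namely Prdx1, Blvrb, Ephx1 and Gstm1. Reads of Gstm1 and Gstm2, and of the ferritin genes and Lyz2, may be shared with close copies, as the counting rule for such reads is not given in the sources used here.

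Several other listed NRF2 targets, Hmox1 among them, did not pass the test between the times in the fit of all 67 libraries. Nqo1, the quinone reductase, had 18.5 to 25.2 CPM at 24 h (median 20.3) and 22.4 to 43.4 CPM at 48 h (median 26.1). The ranges overlapped and the log2 change was 0.44 (SE 0.18, adjusted p = 0.14). Against control, Nqo1 was higher by 1.65 on the log2 scale at 24 h (SE 0.27, adjusted p = 6.1e-05) and by 2.27 at 48 h (SE 0.28, adjusted p = 3.2e-08). Gclm, the regulatory subunit of the enzyme that begins glutathione synthesis, changed by 0.21 between the times (SE 0.09, adjusted p = 0.16), and Gstm1, a further glutathione S-transferase, by 0.36 (SE 0.13, adjusted p = 0.078). Gstm1 passed without 48 h replicate 1, at 0.45 (adjusted p = 0.036). Hmox1 was among the more abundant transcripts, at 3660 to 4895 CPM (median 3836) and 4493 to 6921 CPM (median 5166). In 6 of 8 libraries of 48 h it was above the highest 24 h library, with a log2 change of 0.41 that did not pass (SE 0.18, adjusted p = 0.15). In a fit of the 16 HbHp 200 µM libraries alone, Hmox1 (0.40, adjusted p = 0.0070), Nqo1 (0.43, adjusted p = 0.033) and Gclm (0.21, adjusted p = 0.042) were called. Gstm1 was not called in that fit (0.35, adjusted p = 0.10). Of 8 listed NRF2 regulators none was called.

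The core of the antioxidant response element, TGACNNNGC, was searched on both strands from 250 bases before to 50 after each start site in the RefSeq promoters of GRCm38.p6. It occurred in 12.4% of all 32851 promoter windows and in 3 of the 12 windows of the raised NRF2 targets. By gene, it occurred in 3781 of 27025 genes and in 3 of the 9 raised targets (Gsta3, Pgd and Prdx1). Over the listed targets, 32 of 39 genes had a window and 11 of these held the core. The 250 bases before the start of Prdx1 and of Gclm are shown to compare a called with an uncalled target. Prdx1 was raised, and Gclm did not pass in the fit of all 67 libraries. Capitals mark the core, which lies in both on the opposite strand (read as GCNNNGTCA). Its last printed base lies 125 bases before the start in Prdx1 and 126 in Gclm.
Prdx1 (chr4:116685349-116685598, plus strand): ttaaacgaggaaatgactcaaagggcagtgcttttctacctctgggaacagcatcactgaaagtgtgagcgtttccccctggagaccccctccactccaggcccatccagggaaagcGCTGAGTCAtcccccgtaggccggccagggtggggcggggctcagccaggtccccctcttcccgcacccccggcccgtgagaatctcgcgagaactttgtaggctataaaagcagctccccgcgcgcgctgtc
Gclm (chr3:122245307-122245556, plus strand): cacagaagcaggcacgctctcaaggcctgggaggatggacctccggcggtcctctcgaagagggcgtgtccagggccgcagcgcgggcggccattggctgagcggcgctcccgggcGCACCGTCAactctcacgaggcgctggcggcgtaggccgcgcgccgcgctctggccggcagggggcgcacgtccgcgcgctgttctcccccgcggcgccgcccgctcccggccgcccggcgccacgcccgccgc
The letters alone describe the window and say nothing of binding in these slices.

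Both ferritin genes rose, while most other genes of iron and heme handling were not called. Ferritin heavy chain, Fth1, had 6513 to 7191 CPM at 24 h (median 6643) and 7546 to 10980 CPM at 48 h (median 8604), with no overlap. Its log2 fold change was 0.39 (SE 0.11, adjusted p = 0.026). Ferritin light chain, Ftl1, went from a median of 5817 CPM to 7993 CPM, with 6 of 8 libraries of 48 h above the highest of 24 h, by 0.46 (SE 0.13, adjusted p = 0.031). Without 48 h replicate 1 neither was called (Fth1 0.35, adjusted p = 0.077, and Ftl1 0.40, adjusted p = 0.098). Pcbp1, a chaperone that hands iron to ferritin, fell by 0.20 (SE 0.05, adjusted p = 0.020). Slc40a1, the iron exporter ferroportin, had a median of 50.1 CPM (46.1 to 63.5) at 24 h and 75.5 CPM (56.5 to 100.6) at 48 h. It just missed the threshold in the fit of all 67 libraries (log2 change 0.59, SE 0.19, adjusted p = 0.052). With the 16 HbHp 200 µM libraries fitted alone, Slc40a1 was called (0.59, SE 0.09, adjusted p = 0.00099) and Pcbp1 was not (-0.21, adjusted p = 0.095). In the list of 23 iron genes 2 rose and 1 fell, with a median of -0.01, and without 48 h replicate 1 only 1 rose and none fell. Among 16 genes of heme breakdown, transport and scavenging, Blvrb and Slc46a1 rose, the latter a proton-coupled folate and heme carrier (0.44, SE 0.11, adjusted p = 0.014, and 0.41 without 48 h replicate 1, adjusted p = 0.042). Slc48a1, which carries heme out of the lysosome, changed by 0.16 (SE 0.06, adjusted p = 0.089), the receptor gene Cd163 by -0.11 (SE 0.29, adjusted p = 0.85) and Lrp1, the receptor of heme-hemopexin, by 0.13 (SE 0.13, adjusted p = 0.55). Alas1, the first and rate-limiting enzyme of heme synthesis, rose from a median of 61.9 CPM (57.7 to 70.2) to 83.95 CPM (74.3 to 93.4). All 48 h libraries were higher (log2 fold change 0.41, SE 0.09, adjusted p = 0.0048), also without 48 h replicate 1 (0.39, adjusted p = 0.018), and it was the only one of 9 heme synthesis genes called.

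Of 22 glutathione and thioredoxin genes, 4 rose and 2 fell. Beside Prdx1, the glutathione peroxidase Gpx1 rose by 0.42 (SE 0.11, adjusted p = 0.017), Prdx5 by 0.36 (SE 0.09, adjusted p = 0.022) and the thioredoxin gene Txn1 by 0.24 (SE 0.06, adjusted p = 0.021). Without 48 h replicate 1, 1 of the 22 was called as higher and 1 as lower. Among 22 ferroptosis regulators 5 rose and 1 fell. They included Aifm2, which encodes the ubiquinone reductase FSP1 that protects from ferroptosis (0.32, SE 0.08, adjusted p = 0.015), Lpcat3, which builds the polyunsaturated phospholipids that are its substrate (0.24, SE 0.06, adjusted p = 0.014), and Sat1, which breaks down polyamines (0.35, SE 0.09, adjusted p = 0.017). The call of Sat1 was lost without 48 h replicate 1 (adjusted p = 0.074).

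Genes of the amino acid stress response driven by ATF4 were lower where they passed. Of 29 tested, none rose and 5 fell, 25 lay below 0 and the median was -0.11. Chac1, which degrades glutathione, had 7.35 to 14.6 CPM at 24 h (median 11.01) and 6.03 to 9.16 CPM at 48 h (median 7.005), with overlapping ranges. It fell by 0.56 (SE 0.15, adjusted p = 0.024), and by 0.59 without 48 h replicate 1 (adjusted p = 0.042), but was not called without 24 h replicate 3, 5 or 7. Trib3, a pseudokinase that restrains this response, fell from a median of 33.8 CPM (24.6 to 39.95) to 22.9 CPM (17.8 to 31.03), by 0.49 (SE 0.13, adjusted p = 0.027, and 0.056 without 48 h replicate 1). Shmt2, the mitochondrial serine hydroxymethyltransferase, fell by 0.39 (SE 0.10, adjusted p = 0.016) and the lipoprotein receptor Vldlr by 0.25 (SE 0.07, adjusted p = 0.026). Of 27 genes of sterol and fatty acid synthesis, 3 fell and none rose, and 24 lay below 0 (median -0.16). Hmgcs1, an enzyme of cholesterol synthesis, fell by 0.24 (SE 0.07, adjusted p = 0.040). Without 48 h replicate 1 none of the 27 was called, and Chac1 was the only ATF4 target called.

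Of 30 genes of inflammatory activation, 3 rose and none fell, with a median of 0.05. Beside the lectin receptors Clec4n and Clec4d, the third is Il11, a cytokine of the interleukin 6 family. Il11 rose from 2.22 to 4.08 CPM (median 3.42) to 5.04 to 19.9 CPM (median 7.61), without overlap, and its log2 fold change was 1.41 (SE 0.40, adjusted p = 0.030). The library of 48 h replicate 1 had 19.9 CPM and the next highest 8.86 CPM, and without it the change was 1.13 (adjusted p = 0.12). Ccl11, the chemokine eotaxin, headed the genes raised most among those called with a mean of at least 1 CPM. It had 1.31 to 4.86 CPM (median 2.08) at 24 h and 5.40 to 14.5 CPM (median 7.36) at 48 h, again without overlap (log2 fold change 1.82, SE 0.49, adjusted p = 0.025, and 0.070 without 48 h replicate 1). Gpr84 and Tnfrsf1a, a medium-chain fatty acid receptor and the main receptor of tumour necrosis factor, were at -0.04 (SE 0.26, adjusted p = 0.95) and 0.06 (SE 0.04, adjusted p = 0.29). Of 24 interferon-stimulated genes none was called, and the median was -0.09.

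The other genes among the 10 raised most were AA467197 (1.37), Cd244a (1.33), Ccn5 (1.28), C130050O18Rik (1.21), Cd52 (1.16) and Arg1 (1.10), all as log2 fold changes with adjusted p between 0.0065 and 0.040. Cd244a and Cd52 encode surface proteins of leukocytes, Arg1 is the arginase of alternatively activated macrophages and Ccn5 a secreted matrix protein. The calls of Cd244a, Cd52 and Arg1, and among the lowered genes below those of 1700020D05Rik, St6gal2, Hes3 and Bfsp1, were lost without 48 h replicate 1. Of the 10 lowered most, Car3, a cytosolic carbonic anhydrase, fell from a median of 2.53 CPM (1.42 to 3.06) to 0.99 CPM (0.59 to 1.59), by 1.32 (SE 0.37, adjusted p = 0.030). Cfb, complement factor B, fell from 12.3 to 20.8 CPM (median 16.8) to 5.75 to 10.7 CPM (median 7.05), and the groups did not overlap. Its log2 fold change was -1.07 (SE 0.30, adjusted p = 0.030). Unc13c, a presynaptic priming protein, fell by 0.94 (SE 0.22, adjusted p = 0.011), and Cyb5r2, a cytochrome b5 reductase, by 0.92 (SE 0.22, adjusted p = 0.012), and both stayed called without 48 h replicate 1 (adjusted p = 0.031 and 0.021). The remaining ones, 1700020D05Rik, St6gal2, Hes3, Gm37111, Ccdc18 and Bfsp1, fell by 0.70 to 1.09. Car3 and Cfb were not called without 48 h replicate 1 (adjusted p = 0.077 and 0.054). Cd244a, C130050O18Rik, Cd52, Cyb5r2, Mmp12, Tmem150a, Slc48a1, Prdx5, Shmt2, Lpcat3, Aifm2 and Prc1 overlap a protein-coding gene of the other strand in the GENCODE annotation of GRCm38, and 1700020D05Rik and Cfb one of their own strand, and since no strand setting of the counting is given in the sources used here, such reads cannot be told apart.

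Among the genes with the smallest p, several changes were small. Trak2, an adaptor for mitochondrial transport, fell from 126.9 to 157.7 CPM (median 146.7) to 103.9 to 135.1 CPM (median 111.6), by 0.33 (SE 0.05, adjusted p = 0.00082). Samd4, an RNA-binding translational repressor, fell by 0.46 (SE 0.09, adjusted p = 0.0033), Tmem150a, a membrane protein, by 0.49 (SE 0.08, adjusted p = 0.0016) and the mitochondrial desuccinylase Sirt5 by 0.37 (SE 0.07, adjusted p = 0.0032). Ak1, adenylate kinase, rose from 53.1 to 58.1 CPM (median 55.5) to 61.02 to 79.9 CPM (median 66.96), by 0.29 (SE 0.05, adjusted p = 0.0029), and Bambi, a decoy receptor for transforming growth factor beta, by 0.57 (SE 0.11, adjusted p = 0.0029). Trak2, Samd4, Ak1 and Bambi kept their calls without 48 h replicate 1.

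Most cell cycle genes had negative log2 changes that did not pass: 31 of 35 lay below 0, the median was -0.22, and Prc1, which bundles microtubules in dividing cells, fell by 0.38 (SE 0.11, adjusted p = 0.035). Of 18 targets of the hypoxia-inducible factors, the collagen hydroxylase P4ha1 and the glycolytic enzyme Pgk1 rose by 0.51 and 0.27 (SE 0.11 and 0.07, adjusted p = 0.0069 and 0.025). Of 24 collagen and matrix genes 2 rose, Mmp12 among them, and none fell. Of 25 listed reactive astrocyte genes 3 rose, led by Srgn, a proteoglycan of secretory granules that blood-derived cells also make (1.04, SE 0.28, adjusted p = 0.025). No member of the lists of p53 targets, heat shock chaperones, neurons, astrocytes or endothelial cells was called, and the medians of the neuron and astrocyte lists were -0.09 and 0.13. Bcas1, a protein of newly myelinating oligodendrocytes, fell by 0.36 (SE 0.11, adjusted p = 0.048), and 18 of 19 oligodendrocyte lineage markers lay below 0. The calls of Prc1, Pgk1, Srgn and Bcas1 were lost without 48 h replicate 1 (adjusted p between 0.072 and 0.12). The choroid plexus and ependyma markers (13 genes) varied widely between libraries. Their summed level was 158.3 to 1171 CPM at 24 h and 156.6 to 1972 CPM at 48 h, with a median log2 change of 1.01 and no member called.

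**Figure D3:**
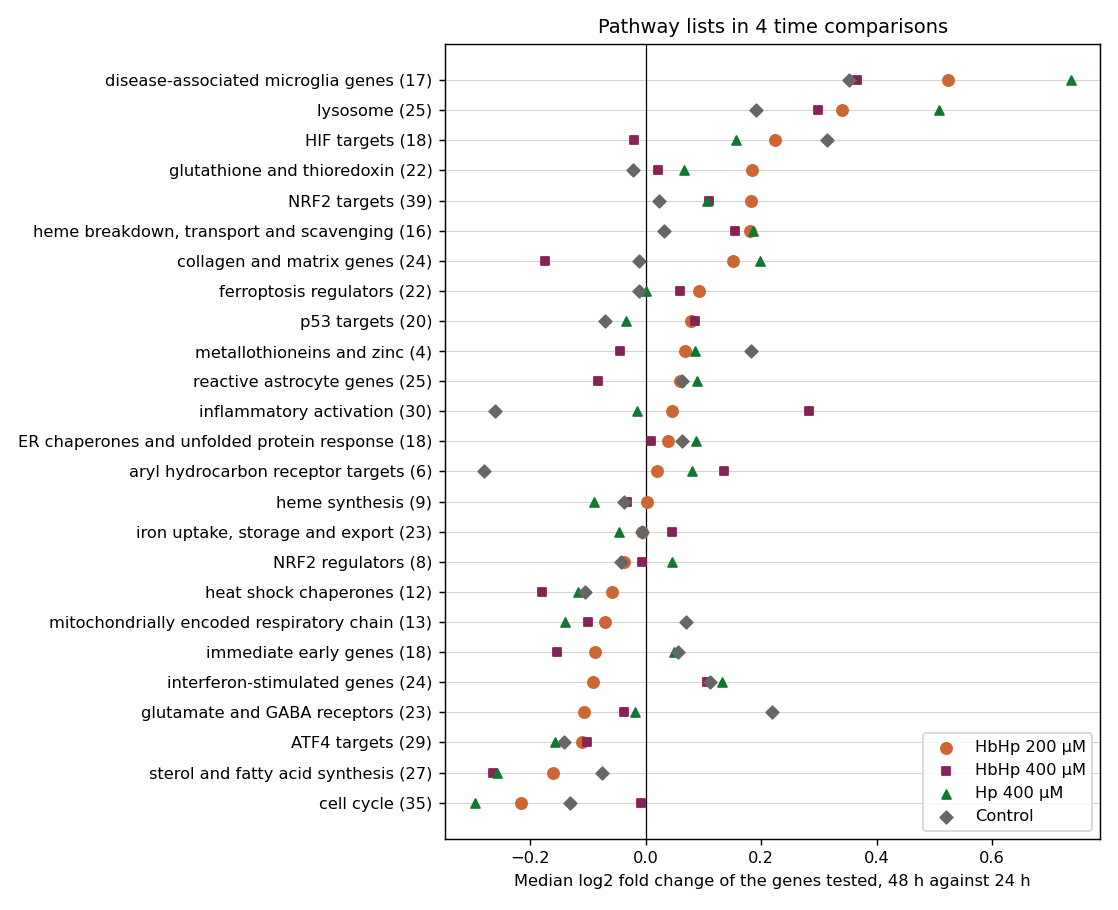
Median log2 fold change at 48 h against 24 h (horizontal axis) over the tested genes of each pathway list (vertical axis, number of genes in brackets, ordered by the HbHp 200 µM value) in HbHp 200 µM, HbHp 400 µM, Hp 400 µM and control slices. Disease-associated microglia and lysosome genes had the highest medians with HbHp 200 µM, 0.52 and 0.34, and lay above 0 in all 4 comparisons.

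The same interval was then read in control slices, which had time in culture and no treatment, in slices with haptoglobin alone and in slices with HbHp 400 µM. These comparisons share no library with the HbHp 200 µM one. Control slices had 887 genes (5.47%) called between 48 h and 24 h (377 up, 2.32%, and 510 down, 3.14%), slices with haptoglobin alone 4068 (25.1%, with 2180 up, 13.4%, and 1888 down, 11.6%) and slices with HbHp 400 µM 21 (0.129%, with 10 up, 0.0616%, and 11 down, 0.0678%). The groups differ in their number of libraries, and these counts are not sizes of effect. Within part of the controls far fewer genes were called, 14 in batch 2 and 3 in round E1, and within round E2 the Hp slices had 760. Of the 430 genes raised with HbHp 200 µM, 422 (98.1%) changed in the same direction with Hp alone, 395 (91.9%) in control slices and 414 (96.3%) with HbHp 400 µM. Of the 254 lowered genes 249 changed in the same direction with Hp alone, 226 in control slices and 230 (90.6%) with HbHp 400 µM. Over all genes tested they were 72.1%, 61.6% and 65.5%. Of the raised genes 325 were themselves called as raised with Hp alone and 57 in control slices, and none was called in the opposite direction. Their median log2 change was 0.31 with HbHp 200 µM, 0.28 with Hp alone, 0.23 with HbHp 400 µM and 0.13 in control slices. The genes were picked for their change with HbHp 200 µM, which by itself tends to make that median the highest. The order of these medians is therefore not a comparison of effect sizes.

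**Figure D4:**
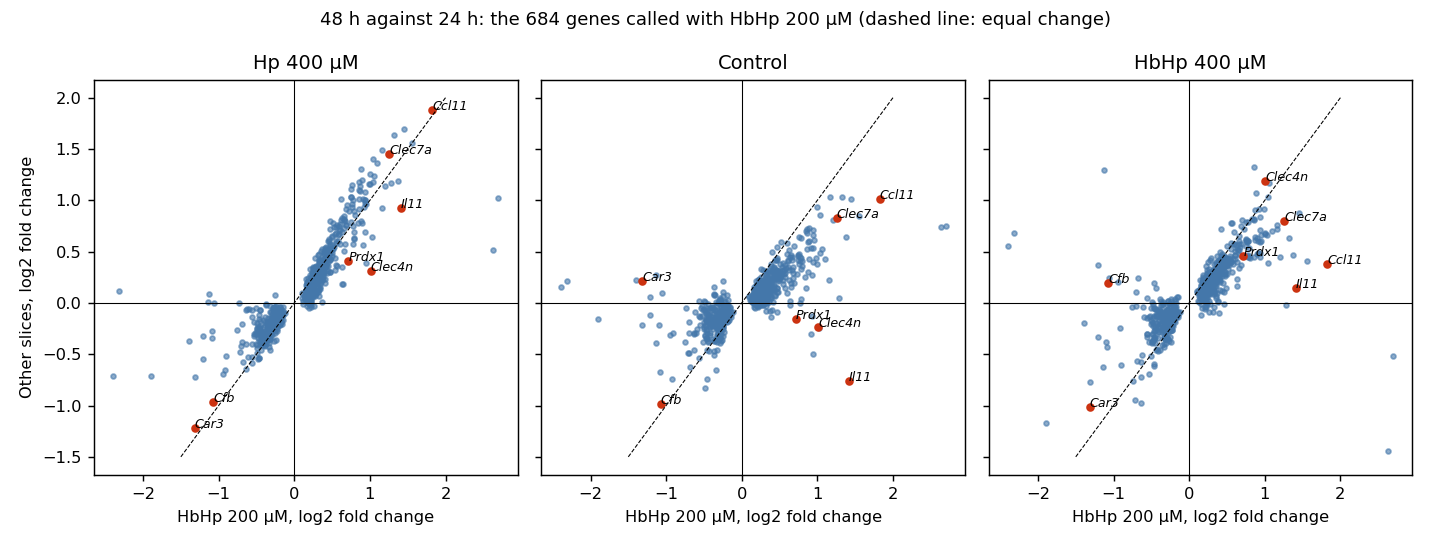
Log2 fold change at 48 h against 24 h of the 684 genes called with HbHp 200 µM (horizontal axes) and of the same genes with Hp 400 µM, in control slices and with HbHp 400 µM (vertical axes), with a dashed line of equal change and a few named genes in red. With Hp alone 98.1% of the raised genes lie above 0, and in control slices 91.9%, mostly below the dashed line. The genes were picked by their values on the horizontal axis, which by itself tends to place raised genes below that line.

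The difference between the time changes was tested itself. No gene passed for HbHp 200 µM against control by edgeR's quasi-likelihood test, where 1649 genes (10.2%) had an unadjusted p under 0.05, nor for HbHp 200 µM against Hp alone (1060 genes, 6.53%, at an unadjusted p under 0.05). DESeq2 called 6 genes against control and none against Hp. The 6 genes were Clec4n, Prdx1, Ripk2, a kinase of innate immune signalling, and the epidermal growth factor receptor ligands Ereg and Areg, all with the higher time change with HbHp, and Usp11, a deubiquitinase with the lower one. For Clec4n, control libraries had 6.17 to 12.6 CPM at 24 h (median 7.995) and 4.78 to 11.98 CPM at 48 h (median 6.66), and libraries with Hp alone 10.1 to 28.7 CPM (median 16.6) and 11.8 to 38.6 CPM (median 18.7). The difference of its time change from that of control was 1.25 on the log2 scale (SE 0.26, adjusted p = 0.085). With HbHp 400 µM Clec4n rose by 1.19 (SE 0.26, adjusted p = 0.019). For Prdx1 the control medians were 625.5 CPM and 529.4 CPM and those with Hp alone 902.7 CPM and 1103 CPM, and the difference from control was 0.87 (SE 0.19, adjusted p = 0.11). Clec7a rose in control slices too, by 0.83 (adjusted p = 0.012), and with Hp alone by 1.45, and its difference from control was 0.43 (SE 0.31, adjusted p = 0.64). Il11 was at -0.76 in control slices (adjusted p = 0.22), and its difference was 2.17 (SE 0.54, adjusted p = 0.25). The differences from control were not refitted without 48 h replicate 1 of HbHp 200 µM. That library was the highest of its group for Clec4n (50.8 CPM), Prdx1 (3494 CPM) and Il11 (19.9 CPM). In the edgeR fit of all 67 libraries, then, no gene called with HbHp and not in control slices was shown to differ between them. DESeq2 called the 6 genes named. With edgeR, 1 gene was called when at least 10 counts were required in every HbHp 200 µM library. Without control 48 h replicate 8 edgeR called 1 gene, and without control 48 h replicate 9 it called 3.

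Disease-associated microglia genes rose in control slices (3 of 17, median 0.35) and with Hp alone (15 of 17, median 0.74). Lysosome genes had medians of 0.19 in control slices, with none of 25 called, and of 0.51 with Hp alone, with 22 called as raised. ATF4 targets fell in control slices (11 of 29 lowered, none raised) and with Hp alone (14 lowered, 2 raised). NRF2 targets had no member called in control slices (median 0.02), and with Hp alone 9 rose (median 0.11). With HbHp 400 µM no member of these 4 lists was called, with medians of 0.37, 0.30, -0.10 and 0.11 in the same order. Of 27 sterol and fatty acid synthesis genes, 20 fell with Hp alone (median -0.26), 3 in control slices (median -0.08) and none with HbHp 400 µM. Of 35 cell cycle genes 23 fell with Hp alone, and none was called in control slices or with HbHp 400 µM. Among 19 oligodendrocyte lineage markers 8 fell in control slices, 4 fell and 1 rose with Hp alone, and none was called with HbHp 400 µM. The summed microglia markers moved in the same direction within round E2, the round of all HbHp libraries: from 2193 to 3704 CPM at 24 h to 4091 to 5839 CPM at 48 h with Hp alone (6 and 6 libraries), and from 1644 to 3541 CPM (3 libraries) to 5235 and 5769 CPM in control slices. In round E1 the levels were lower, 566.0 to 1773 CPM and 1148 to 3544 CPM with Hp alone (6 and 5 libraries), and in control slices of that round 683.2 to 2339 CPM (median 1382) and 894.0 to 3494 CPM (median 1792) overlapped widely (7 and 7 libraries).

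**Figure D5:**
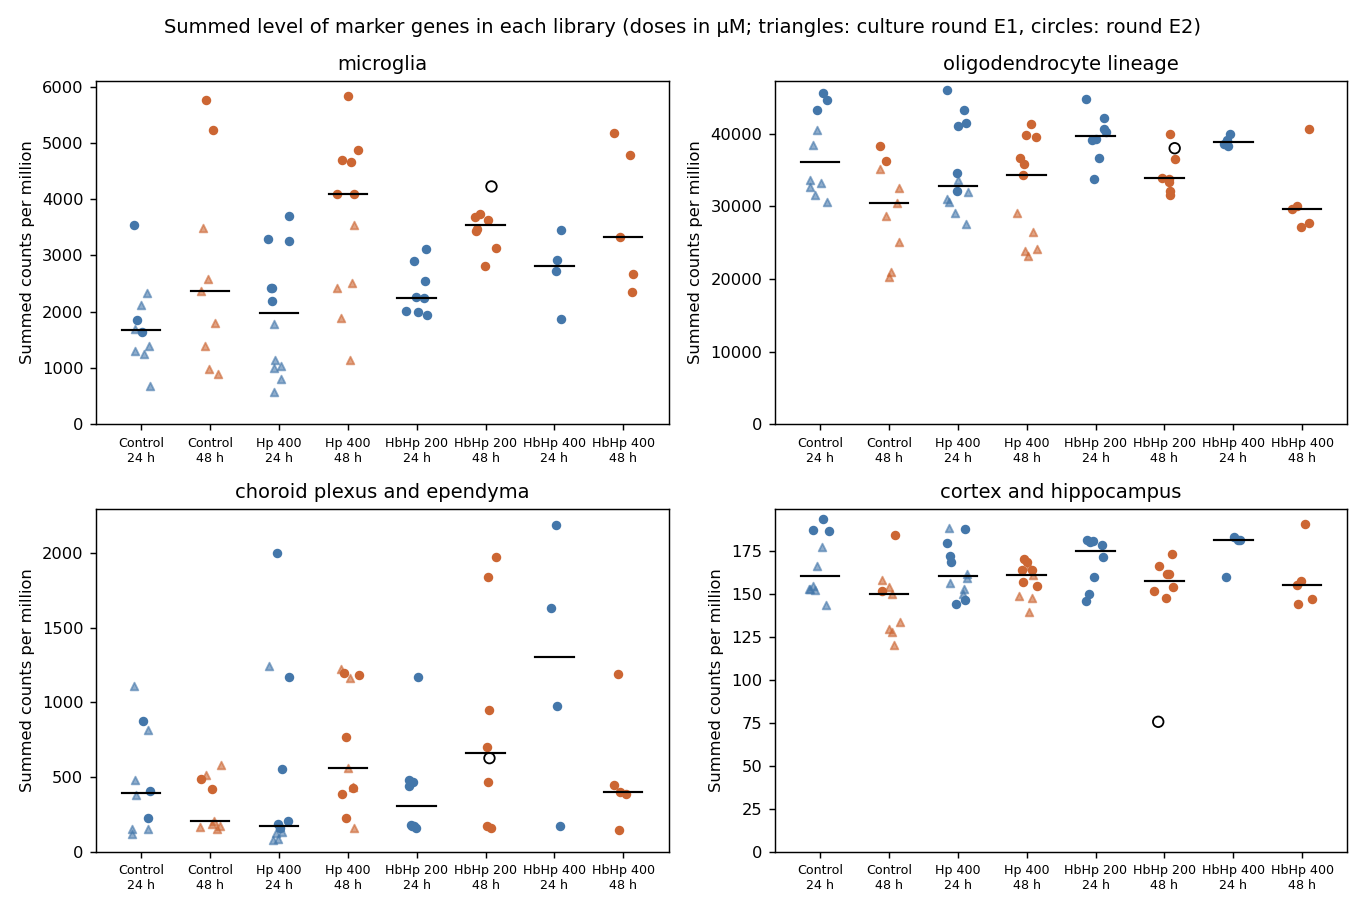
Summed CPM (vertical axes, from 0) of marker genes of microglia, the oligodendrocyte lineage, choroid plexus with ependyma, and cortex with hippocampus in each library of the control, Hp and HbHp groups at 24 h (blue) and 48 h (orange), with bars at group medians and an open circle for 48 h replicate 1 of HbHp 200 µM. Microglia markers lay higher at 48 h than at 24 h in group median in all 4 kinds of slice, and higher in round E2 (circles) than in round E1 (triangles) with Hp alone.

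At the other dose, Acod1, the macrophage enzyme that makes itaconate, was the single gene of 16224 (0.00616%) whose time change differed between HbHp 400 µM and 200 µM. It was at 0.24 to 0.84 CPM in all 16 libraries of 200 µM. At 400 µM it had 0.35 to 0.46 CPM at 24 h and 0.59, 68.1, 0.42, 0.62 and 0.67 CPM at 48 h, so that 1 library carried the difference (5.30 on the log2 scale, SE 0.99, adjusted p = 0.022).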

How the data were processed

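The authors deposited whole-number counts per gene for each library, made with featureCounts on GRCm39 per the submitters' processing notes. RNA was extracted with the Lexogen SPLIT kit and libraries were made with Illumina TruSeq mRNA kits. The aligner, the versions and the strand setting are not given in the sources used here. Fit and tests were computed here from these counts. Of 188 libraries, 67 entered one fit (HbHp at both doses, Hp at 400 µM and controls of batches 2 and 3) with group, batch and culture round as terms. Batches are the sequencing orders in the labels, and rounds are read from the codes E1 and E2 in the library names. The labels gave 21 libraries no single group, and these were left out. Genes passed edgeR's filterByExpr (minimum count 10, minimum total 15), libraries were scaled by TMM, and edgeR's quasi-likelihood test (edgeR 4.0.16, R 4.3.3) was used with Benjamini-Hochberg adjustment at 0.05. All log2 fold changes, standard errors and adjusted p-values in the text are from this test unless DESeq2 (1.42.0) is named. SE was the size of the log2 fold change over the root of the F statistic. CPM are counts over TMM-scaled library sizes, in units of 1e+06 reads. Total counts were 15587938 to 51447782 per library, and standard errors rest on the spread between libraries as well as on counting error. No pair of the 120 pairs of HbHp 200 µM libraries was a duplicate within counting error. The fit was tested on simulated data.

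Named genes were the 10 raised most and 10 lowered most of those called whose mean CPM was 1 or more, the 5 with the smallest p each way, up to 4 of each list with the smallest p, and genes the paper names, apart from a few that are not reported here. Lyz2, Cd36, Fabp4, Gsta3, Pgd, Acod1 and the genes that DESeq2 called were named after their values were seen. Members and lists were chosen with earlier results of these data known. Alternatives were DESeq2, RLE scaling, other filters, other sample sets and terms, replicate blocks and leaving out single libraries. GENCODE M21 gave overlaps and RefSeq GRCm38.p6 the promoters, with no coordinates moved between builds.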

Additional observations from a re-analysis of the deposited data

Results flagged for a closer look

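Within the 8 libraries of each time, 76 sets of values were tested for a library far from the others (Dixon's test at 95%), and 16 had one, where chance gives about 1 in 20. Most were 48 h replicate 1. It was highest in Tyrobp (464.7 CPM), Lyz2 (6097 CPM), Mmp12 (984.5 CPM) and Creg1 (462.9 CPM), genes of myeloid cells and their lysosomes. It was also highest in Prdx1 (3494 CPM), Blvrb (113.3 CPM), Nqo1 (43.43 CPM), Hmox1 (6921 CPM) and Fth1 (10980 CPM), genes of redox and heme handling, and in Il11 (19.88 CPM). It was lowest in Samd4 (27.08 CPM) and the summed cortex and hippocampus markers (75.61 CPM).

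At 24 h, replicate 2 was far from the others in Hmox1 (4895 CPM), replicate 4 in Alas1 (70.22 CPM), replicate 6 in Slc40a1 (63.46 CPM) and replicate 3 in the summed choroid plexus and ependyma markers (1171 CPM). Acod1 was the gene whose time change differed between the doses, by 5.30 on the log2 scale, and it rested on 1 library of HbHp 400 µM at 48 h with 68.09 CPM.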

How the results depend on the processing

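Between 48 h and 24 h of HbHp 200 µM, 1021 genes were called by DESeq2, 673 with RLE scaling, 516 without a filter, 785 with the stricter filter, 724 with the letter of the library code as a term and 904 on the 16 libraries alone. The count ran from 199 to 1059 when 1 library was left out. Both times carry the same 8 library codes (F1 to F4 and M1 to M4), and the labels do not say whether equal codes mark the same animal. With the library code as a replicate block 624 genes were called, and with the title number as a block 364. Of the pairs by code 4 of 8, and of those by title number 2 of 8, had correlated deviations over 0.1. With HbHp 400 µM, DESeq2 called 36 genes, the replicate block on the library code 2, and leaving out single libraries 11 to 86. Controls gave 382 genes without batch and round terms, 3 in round E1 and 14 in batch 2. Hp alone gave 760 genes in round E2, and 895 there with the replicate block. For the difference from control, DESeq2 called 6 genes, the stricter filter 1 and fits without 1 batch 3 control 0 to 3. For the difference between doses, DESeq2 called 4, the stricter filter 0 and HbHp libraries alone 0. The cause of these shifts was not tested.

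Gpr84, called in none of these fits, had log2 changes from -0.105 to 0.0859 when 1 library was left out, and turned positive without 48 h replicate 2 or 3 or 24 h replicate 1 or 2. Of 73 called genes described or listed, 35 stayed called without 48 h replicate 1, 56 without 24 h replicate 1, 50 with the title block and 59 with the code block. Chac1 lost its call without 24 h replicate 3, 5 or 7. Lowly expressed genes near 1 CPM are limited by counting error.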
